A study of Homo sapiens with 4 samples.

Results

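The S100 calcium-binding proteins were followed at the transcript level in UMSCC74B, a cell line derived from a squamous cell carcinoma of the head and neck. The genes considered were S100A2, S100A3, S100A4, S100A6, S100A7, S100A8, S100A9, S100A10, S100A11 and S100A16, taken by name from the deposited count tables, 10 of 29655 distinct gene names. The data are RNA-seq of total RNA from 2 libraries of cells given control shRNA and 2 libraries of cells given PRMT5 shRNA, all collected at 72 h. PRMT5 is the arginine methyltransferase whose knockdown (KD) the study set against control cells. According to the labels shRNA plasmids were transfected, whereas the methods of the study describe lentiviral delivery. The labels do not say whether libraries of a group came from separate cultures, so the p-values measure only the spread between these libraries, which may be technical.

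S100 proteins are small EF-hand proteins that bind calcium, mostly as dimers, and then expose a surface that docks onto partner proteins. S100A8 and S100A9 form calprotectin, an antimicrobial complex of myeloid cells and of stressed or inflamed epithelium. S100A10 and S100A11 bind annexins, S100A4 and S100A6 act on the cytoskeleton and other intracellular partners, and S100A2 and S100A7 are best known from stratified epithelium, where most of the family is encoded side by side in the epidermal differentiation complex of chromosome 1.

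The largest differences were decreases. In the libraries labelled PRMT5 KD, S100A8 was close to 0, S100A9 was near 0, S100A4 was 4.73-fold lower, S100A3 2.39-fold lower and S100A6 1.56-fold lower. S100A10 and S100A11 were 1.32-fold and 1.37-fold higher, did not reach the fold change required for a call, and changed sign once transcript length and GC content were corrected for. S100A2 and S100A16 passed neither criterion, and S100A7 was at or next to 0 throughout. A gene was called at a false discovery rate (FDR) under 0.05 together with a log2 fold change (log2FC) of 0.5 or more in either direction, from the edgeR quasi-likelihood test over 11896 protein-coding genes.

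Before the values, promoter sequences are shown for the members with the largest decreases and for S100A10 and S100A11, chosen after their values were seen. S100A8 and S100A9 entered the test only through the control libraries and so had to be lower, and S100A10 and S100A11 were not called. The promoters of S100A3 and S100A6, also called lower, hold no TATA box letters (TATAAA). Only these exact letters were sought. The window of S100A6 holds the near match TATAAG close to its start, and near matches in other windows were not counted. Any link between these letters and the changes was not tested. Windows of 250 bases before the RefSeq transcription start of S100A4, S100A8 and S100A9 are given beside those of S100A10 and S100A11 (GRCh38.p14, read 5′ to 3′ on the strand of the gene). The regions are chr1:153545807-153546056 (minus strand) for S100A4, chr1:153391074-153391323 (minus strand) for S100A8, chr1:153357604-153357853 (plus strand) for S100A9, chr1:151993860-151994109 (minus strand) for S100A10 and chr1:152037005-152037254 (minus strand) for S100A11. For S100A8, which has 3 RefSeq starts, the window nearest to the annotated 5′ end is shown. Capitals mark the TATA box letters TATAAA on the strand of the gene and every CG.
S100A4: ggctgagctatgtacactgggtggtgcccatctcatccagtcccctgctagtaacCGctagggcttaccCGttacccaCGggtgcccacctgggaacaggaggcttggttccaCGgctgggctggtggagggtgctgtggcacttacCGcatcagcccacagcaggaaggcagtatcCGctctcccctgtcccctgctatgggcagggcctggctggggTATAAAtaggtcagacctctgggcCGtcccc
S100A8: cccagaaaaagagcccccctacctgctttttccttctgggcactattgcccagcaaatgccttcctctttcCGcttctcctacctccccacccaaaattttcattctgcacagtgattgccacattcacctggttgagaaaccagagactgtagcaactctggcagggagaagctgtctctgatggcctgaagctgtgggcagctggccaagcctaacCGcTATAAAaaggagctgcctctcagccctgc
S100A9: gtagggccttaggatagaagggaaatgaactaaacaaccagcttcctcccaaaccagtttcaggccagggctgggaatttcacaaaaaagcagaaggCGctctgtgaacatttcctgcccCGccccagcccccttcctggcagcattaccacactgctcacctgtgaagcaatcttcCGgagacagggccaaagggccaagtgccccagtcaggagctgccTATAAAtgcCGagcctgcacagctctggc
S100A10: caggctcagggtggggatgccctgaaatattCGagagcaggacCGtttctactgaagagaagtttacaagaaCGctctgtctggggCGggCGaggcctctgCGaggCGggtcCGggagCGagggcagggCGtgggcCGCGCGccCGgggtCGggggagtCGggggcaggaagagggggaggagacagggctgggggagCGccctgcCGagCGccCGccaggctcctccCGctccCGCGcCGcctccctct
S100A11: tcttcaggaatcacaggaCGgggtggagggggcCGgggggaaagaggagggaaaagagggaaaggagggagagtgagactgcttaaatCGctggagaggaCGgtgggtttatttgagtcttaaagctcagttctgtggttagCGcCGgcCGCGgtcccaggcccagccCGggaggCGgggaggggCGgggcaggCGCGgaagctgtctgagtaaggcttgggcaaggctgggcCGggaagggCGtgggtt
The TATAAA of S100A4 begins 31 bases before the start, and that of S100A8 and of S100A9 29 bases before it. These windows hold 7, 2 and 4 CG. The windows of S100A10 and S100A11 hold 24 and 15 CG and no TATAAA.

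Across the family, every gene had a RefSeq window. TATAAA, searched on both strands, was found in 4 of the 10 (S100A4, S100A7, S100A8 and S100A9) and in 10.7% of 35116 human windows of the same length. S100A7, whose TATAAA begins 28 bases before its start, was at or next to 0, with a single count over the 4 libraries. The window of S100A6, a transcript that was also lower, held 24 CG and no exact TATAAA. Those of S100A2 and S100A3 held 4 CG each and that of S100A16 held 1, beside a median of 11 over all windows. The AP-1 letters TGANTCA were in 2 of the 10, S100A2 and S100A3, and in 6.6% of all windows. The GC box GGGCGG was in 5 of the 10 against 42.6%, and the C/EBP letters TTNNGNAA in 4 of the 10 against 33.2%. All of these motifs were searched on both strands without regard to overlap with each other, and a match describes the letters only.

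The transcript of the targeted gene was examined before the family. PRMT5, on chromosome 14, had 94.3 and 84.3 CPM (counts per 1000000 of the TMM-scaled library size) in control, against 132 and 150 CPM in the PRMT5 KD-labelled libraries. It was thus higher and not lower under the KD label, with a log2FC of 0.66 (standard error, SE, 0.12, FDR = 0.00546). Without control replicate 2 the value was 0.58 and the call was lost (FDR = 0.0674). The study checked its knockdown by immunoblot, and its methods also name qRT-PCR of mRNA after transduction. Counts do not measure the protein. All directions below are by the labels. Totals were 52185289 to 65964558 counts per library. The share of ribosomal RNA was 15.3% and 14.2% in control and 26.2% and 18.0% in the KD-labelled libraries. Intervals on counts cover counting error only and leave out the spread between the libraries pooled in a group. They also take every count as an independent molecule, which PCR copies are not.

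The calprotectin genes gave the largest fold changes. S100A8 (chromosome 1, 153390032 to 153391073, minus strand) had 58 and 144 counts in control replicates 1 and 2 and 2 and 0 counts in PRMT5 KD replicates 1 and 2. Both control libraries were above both libraries labelled PRMT5 KD, and control replicate 2 was well above control replicate 1. In scaled units these were 1.47 and 2.88 CPM against 0.042 and 0 CPM, where a count of 0 allows up to 0.0628 CPM. The pooled counts of 202 and 2 give a level 108-fold higher in control (95% exact counting interval 29.4 to 894). The fitted log2FC was -6.53 (SE 0.81, FDR = 0.00126), a size that depends on how a count of 0 is treated. Leaving out PRMT5 KD replicate 1 gave -9.64 and leaving out replicate 2 gave -5.61, with the call kept in both fits.

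S100A9 (chromosome 1, 153357854 to 153361023, plus strand), the partner subunit, had 24 and 95 counts in control against 5 and 0. Again the groups did not overlap, with control replicate 2 well above the other 3 libraries. The pooled counts of 119 and 5 give a level 25.3-fold higher in control (95% exact counting interval 10.6 to 79.5), and the log2FC was -4.53 (SE 1.04, FDR = 0.0145). Without control replicate 2 it was -3.46 and no longer called (FDR = 0.078), and without PRMT5 KD replicate 1 it was -8.87. S100A8 and S100A9 passed the filter on low values only through the control libraries, so both had to differ. Their ratio per length was 1.55 and 0.975 in the control libraries and 0.257 in PRMT5 KD replicate 1, where it rests on 2 and 5 counts. S100A12, the third calgranulin, was at 0 in every library.

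Because calprotectin is abundant in myeloid cells, markers of that lineage are given beside it. Of 8 myeloid markers, 5 were at or below 0.2 CPM in every library, among them PTPRC, the pan-leukocyte gene, with 3, 5, 0 and 2 counts. CD14, a lipopolysaccharide co-receptor, fell with S100A8 and S100A9, from 1371 and 2000 counts to 51 and 89 (log2FC -4.67, FDR = 0.000239). CD68 was called higher (0.63), though not without control replicate 1 (0.51, FDR = 0.075), and the summed level of the 8 markers was 131 and 154 CPM in control and 155 and 172 CPM in the KD-labelled libraries. Fewer cells of a type and less RNA per cell cannot be told apart in bulk libraries, and the part of other cell types in these results was not tested.

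**Figure D1:**
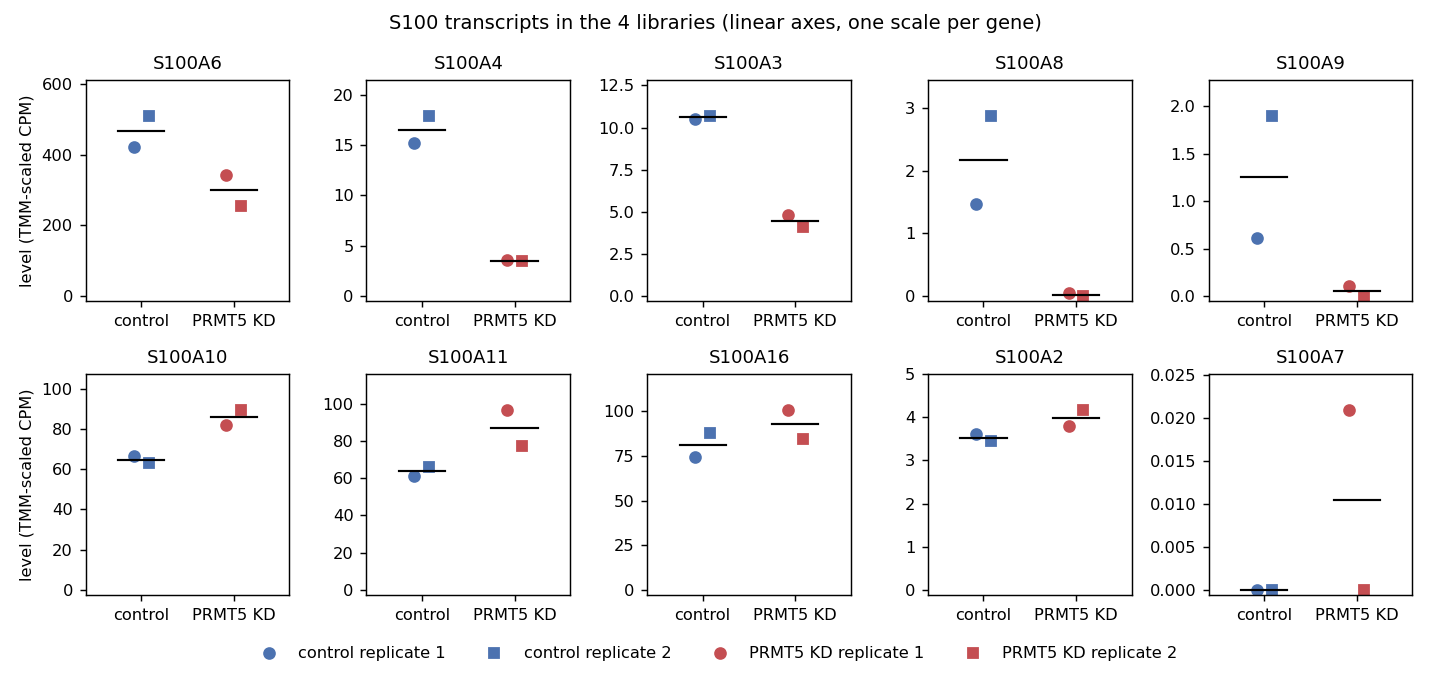
Level of each of the 10 S100 transcripts in TMM-scaled CPM (vertical axis, linear, a scale of its own for each gene) in the control (blue) and PRMT5 KD (red) libraries. Each point is a library and the bar is the mean of the 2 libraries in a group. S100A4 and S100A3 are separated by far more than their spread, S100A16 overlaps, and S100A7 rests on 1 count.

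S100A4, S100A3 and S100A6 were called lower as well. S100A4, which binds nonmuscle myosin IIA and is also called fibroblast-specific protein, had 15.2 and 17.9 CPM in control and 3.55 and 3.43 CPM in the PRMT5 KD-labelled libraries. The libraries within each group lay close together and the groups were far apart. The means of 16.5 ± 1.89 and 3.49 ± 0.0859 CPM (SD, n = 2 each) correspond to a log2FC of -2.24 (SE 0.17, FDR = 0.000337). Leaving out any single library gave values from -2.35 to -2.12, each of them called. The gene runs from 153543613 to 153550136 on the minus strand of chromosome 1.

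S100A3, a cysteine-rich member known from the hair cuticle, lies within the span of S100A4 on the same strand, from 153547329 to 153549258, and the annotated exons of these genes share 0 bases. It had 10.5 and 10.7 CPM in control and 4.81 and 4.08 CPM in the KD-labelled libraries. The control values were nearly equal, and both libraries of the other group lay well below them. The means were 10.6 ± 0.0991 and 4.45 ± 0.519 CPM (SD, n = 2 each), a log2FC of -1.25 (SE 0.18, FDR = 0.00192). Left-out libraries moved it between -1.34 and -1.13 without loss of the call. The ratio of S100A4 to S100A3 counts was 1.44 and 1.67 in control and 0.738 and 0.841 in the KD-labelled libraries, so the order of these neighbours was exchanged between the groups. The counts alone do not tell whether reads that run between the genes were assigned to one or the other.

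S100A6, or calcyclin, which binds the ubiquitin ligase adaptor CACYBP and several annexins, was the most abundant of the family. Its levels were 423 and 511 CPM in control and 342 and 256 CPM in the PRMT5 KD-labelled libraries. Both groups spread widely, and the lowest control library was not far above the highest library of the other group. The means were 467 ± 61.8 and 299 ± 61.3 CPM (SD, n = 2 each), with a log2FC of -0.64 (SE 0.18, FDR = 0.0256). With the length and GC correction it was -1.10 (FDR = 0.00225). The call was lost without control replicate 1 (FDR = 0.0659), without control replicate 2 (FDR = 0.175) and without PRMT5 KD replicate 2, where the value was -0.44. With scaling by total counts alone it was -0.47, also below the threshold. The gene lies on the minus strand from 153534599 to 153536244.

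S100A4 carries the name of a fibroblast marker, and the fibroblast list moved in the same direction. Of its 6 genes 5 were tested, and all 5 were called lower (COL1A2, LUM, THY1, COL1A1 and DCN, with log2FC values from -3.71 to -1.74), beside 24.3% of all genes tested. The summed level of the list was 606 and 692 CPM in control and 113 and 122 CPM in the KD-labelled libraries, and no marker was near 0 in control. Of 8 keratinocyte markers, by contrast, KRT5 had 0, 0, 0 and 4 counts and KRT6A 0, 1, 0 and 0. KRT14 had 0, 0, 11 and 22 counts, KRT17 5, 6, 53 and 71, EPCAM 37, 29, 40 and 48, and CDH1, or E-cadherin, 9, 4, 2 and 4. Thus 2 of the 8, KRT5 and KRT6A, were at or below 0.2 CPM in every library of a line described as squamous carcinoma, and KRT14 was at 0 in control. The summed level of the list was 29.9 to 51.9 CPM, mostly DSP, a desmosome gene with 22.5 to 45.8 CPM, and DSP and TP63 were the only genes tested. Endothelial markers summed to 10.9 and 14.8 CPM in control and to 2.1 and 1.15 CPM in the KD-labelled libraries, with PECAM1 called lower after passing the filter only through the control libraries. The part of the fibroblast and endothelial markers in the lower S100A4 was not tested.

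S100A10 and S100A11, which are best known as annexin partners, lay above 0, except with the correction for length and GC content given below. S100A10, or p11, which joins annexin A2 in a tetramer at the plasma membrane, had 66.7 and 63 CPM in control and 81.9 and 89.7 CPM in the KD-labelled libraries. S100A11, which binds annexin A1, had 61.4 and 66.4 CPM in control and 97.1 and 77.7 CPM in the KD-labelled ones. For each gene both libraries labelled PRMT5 KD were above both control libraries. The log2FC of S100A10 was 0.40 (SE 0.11, FDR = 0.022, 95% interval 0.19 to 0.62). That of S100A11 was 0.45 (SE 0.14, FDR = 0.0336, 95% interval 0.18 to 0.73). In this fit each passed the FDR and missed the fold change threshold. With a term for the replicate number neither passed the FDR (0.0502 and 0.0683). Over all genes tested, 26.3% passed the FDR with a higher level, whether or not they met that threshold.

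These increases depended on the settings. Once exon length and GC content were corrected for, the log2FCs were -0.16 for S100A10 and -0.33 for S100A11, without a call. With total counts alone they were 0.58 and 0.63, both called, a scaling that moved the median of all genes to 0.17. S100A11 was also called with filterByExpr (0.52), with no filter on low counts (0.51) and with all gene names in the fit (0.53). With single libraries left out, the log2FC of S100A10 ranged from 0.34 to 0.50 and that of S100A11 from 0.32 to 0.61. The fold change threshold was reached by S100A10 without PRMT5 KD replicate 1 (0.50). S100A11 reached it without PRMT5 KD replicate 2 (0.61) and without control replicate 2 (0.51). S100A10 spans 151982915 to 151993859 and S100A11 152032506 to 152047907, both on the minus strand of chromosome 1. The annotation lists 8 pseudogenes named after S100A11, and how the estimated counts divided reads among these copies is not known.

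S100A2, known from basal epithelium, had 3.61 and 3.44 CPM in control and 3.8 and 4.18 CPM in the KD-labelled libraries. The groups did not overlap, but the gap was small against the spread. Its log2FC of 0.18 was not called (FDR = 0.503, 95% interval -0.24 to 0.60) and became -0.10 after the length and GC correction. S100A16, a broadly expressed member, had 74.2 and 87.7 CPM in control and 101 and 84.4 CPM, so the groups overlapped. Its log2FC was 0.20 (FDR = 0.283, 95% interval -0.08 to 0.47). S100A7, or psoriasin, had 0 counts in 3 libraries and 1 count in PRMT5 KD replicate 1. A count of 0 allows a level of up to 0.0758 CPM in the control libraries, and no change could be detected at this depth. S100A2 runs from 153561108 to 153567890, S100A16 from 153606886 to 153613145 and S100A7 from 153457744 to 153460651, all on the minus strand.

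**Figure D2:**
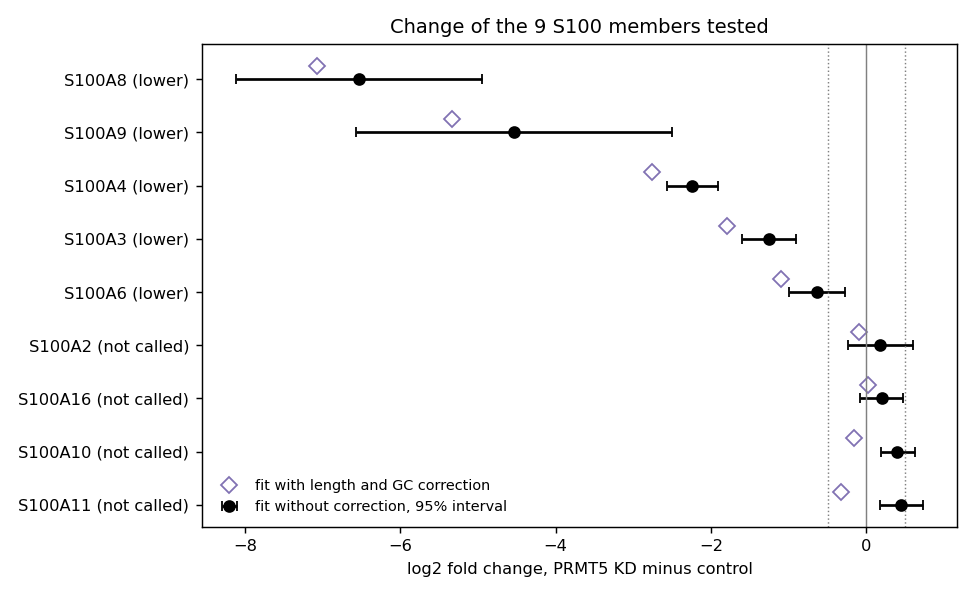
Log2 fold change (PRMT5 KD minus control, horizontal axis) of the 9 S100 genes tested, with black points and 95% intervals for the fit without correction and open diamonds for the fit corrected for exon length and GC content. Dotted lines mark the fold change threshold of 0.5 in both directions. S100A8, S100A9, S100A4, S100A3 and S100A6 lie below 0 in both fits, whereas S100A10, S100A11 and S100A2 change sign.

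As a family, 5 of the 9 genes tested were called lower and 0 higher, beside 24.3% of all genes tested called lower and 21.2% called higher. The same numbers were called by DESeq2, and 2 of the genes above 0 (S100A10 and S100A11) had an unadjusted p under 0.05 in the edgeR quasi-likelihood test. Since S100A8 and S100A9 passed the filter only where they were high, the 7 genes that passed it in both groups are also given alone. Of these 3 were called lower and 0 higher, and their median log2FC was 0.18, while that over all 9 was -0.64 and over all genes tested -0.01. Before any correction for length the family thus split, with S100A3, S100A4 and S100A6 lower and S100A10, S100A11, S100A2 and S100A16 slightly above 0.

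The messages of this family are short, and in these libraries short messages tended to be higher. The longest annotated transcripts of the 9 genes measure 563 to 1172 nt, beside 3891 nt for the median gene tested. The 496 genes tested in the same range had a median log2FC of 0.24, with 30.8% called higher and 11.5% called lower. After that correction the median of the 9 genes was -1.10, against 0.06 over all genes tested. The 9 include S100A8 and S100A9, which had to be lower. Of the 7 genes that passed the filter in both groups, S100A4 was at -2.76, S100A3 at -1.79 and S100A6 at -1.10. S100A11 was at -0.33, S100A10 at -0.16, S100A2 at -0.10 and S100A16 at 0.02. The letters of a G-quadruplex pattern (4 runs of at least 3 G with loops of 1 to 7 bases) were sought in the longest transcripts. They were found in 2 of the 10 genes, S100A2 and S100A16, and in 29.3% of all genes tested. These shares are not for genes of like length, since longer transcripts hold more places for a match.

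Levels were compared between genes as RPKM, that is, CPM per kilobase of exon. In control the order was S100A6 (481 RPKM), S100A11 (98.4), S100A10 (64.1), S100A16 (47.6), S100A4 (17.5), S100A3 (12.6), S100A8 (2.44), S100A2 (2.28) and S100A9 (2.19). The last 3 overlapped between the control libraries, no other neighbours in the order did, and S100A6 was 4.89 times the next gene. Under the PRMT5 KD label the order at the top was kept, with 308 RPKM for S100A6, 135 for S100A11, 84.8 for S100A10 and 54.5 for S100A16. Below them S100A3 (5.29 RPKM) stood above S100A4 (3.69), S100A2 was at 2.58, and S100A9 (0.0917) and S100A8 (0.0236) were last and overlapped. S100A6 made up 64.4% and 66.8% of the counts of the family in control and 53.9% and 49.2% in the KD-labelled libraries. The 10 genes together summed to 657 and 765 CPM in control and to 635 and 519 CPM in the KD-labelled ones.

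**Figure D3:**
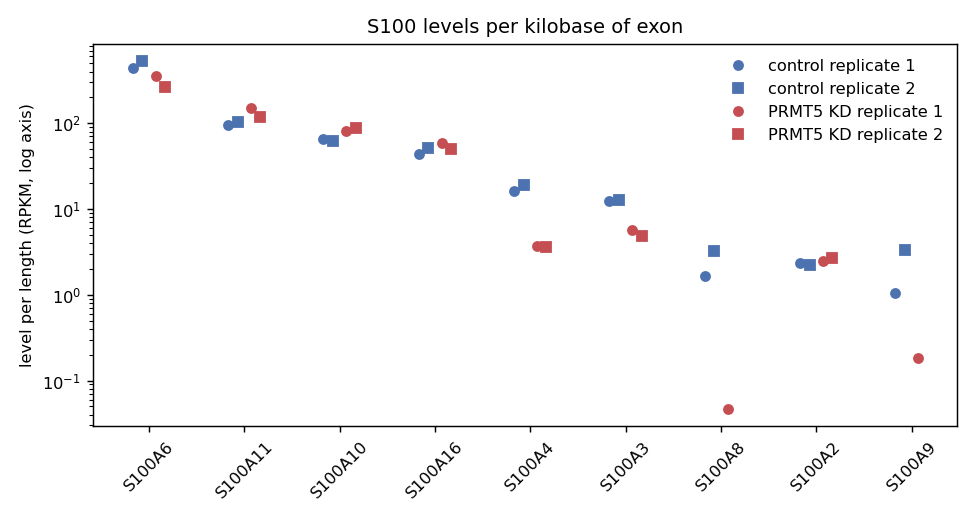
Level per length (RPKM, log axis) of the S100 genes in the control (blue) and PRMT5 KD (red) libraries, in the order of the control mean, each point a library. Values of 0 (S100A8 and S100A9 in PRMT5 KD replicate 2) and S100A7 are not drawn. S100A6 is highest in every library, and S100A4 falls from above S100A3 in control to below it in the KD-labelled libraries.

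The other genes of the family were nearly silent. Of 11 further S100 names, S100A12, S100A7L2 and S100G were at 0 in every library. S100A1 had 1 count and S100A14 3 counts in each library, S100B had 1 count in all, and S100A7A 2. S100P had 1, 1, 5 and 6 counts, S100A5 3, 6, 1 and 2, and S100Z 10, 3, 0 and 6. Only S100A13, which binds FGF1 in its unconventional secretion, was tested, with 568 and 991 counts in control and 795 and 647 in the KD-labelled libraries. Those groups overlapped and the log2FC was -0.18 (SE 0.20, FDR = 0.484).

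The region between S100A10 and the far end of the S100 cluster (chromosome 1, 151982915 to 153632039) holds 44 further protein-coding genes matched by name. Among them are the late cornified envelope, SPRR and filaggrin-type genes of the epidermal differentiation complex. Loricrin, a cornified envelope gene, is not among them and was not examined. None of the 44 had enough counts to be tested. At 0 in all 4 libraries were 29, and 37, with those 29 included, had at most 3 counts in any library. The most counts were in SPRR2D, a cornified envelope precursor, with 11, 4, 21 and 10. Filaggrin, FLG, had 10, 12, 7 and 4 counts, and both of these were named after their values were seen. Without a filter on low counts, SPRR2A and LCE3D were called higher on 1, 0, 15 and 4 and on 0, 0, 7 and 4 counts. The more abundant S100 genes therefore stood in a stretch of chromosome 1 whose other protein-coding genes, as far as matched by name, were at or close to 0 in both groups.

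Partners and receptors of S100 proteins were examined as a list of 18 genes. Of the 16 tested, 2 were called higher, 6 lower and 8 neither, with a median log2FC of -0.30, beside 21.2% called higher and 24.3% called lower over all genes tested. AHNAK, the giant scaffold that binds the S100A10 and annexin A2 complex, had 3257 and 3274 CPM in control and 1095 and 1226 CPM in the KD-labelled libraries (log2FC -1.49, FDR = 0.000657). MYH9, the heavy chain of nonmuscle myosin IIA and partner of S100A4, had 2741 and 3221 CPM against 2019 and 1255 CPM (-0.86, FDR = 0.0274), a call lost without control replicate 1 (-0.98, FDR = 0.0841), without control replicate 2 (-0.74, FDR = 0.163) and with the length and GC correction (-0.31). It was -0.55, still called, without PRMT5 KD replicate 2. The groups did not overlap for either gene, although the libraries labelled PRMT5 KD differed more for MYH9. ANXA6 (-0.86, FDR = 0.00256) and IQGAP1 (-0.81, FDR = 0.0044) were lower too. ANXA1, partner of S100A11, was called higher, with 405 and 314 CPM in control and 851 and 582 CPM in the KD-labelled libraries (0.99, FDR = 0.0122). Also called, and named after their values were seen, were CACYBP, partner of S100A6, at 0.57 (FDR = 0.00824), and ANXA2 at -0.56 (FDR = 0.0262). ANXA2 lost its call without control replicate 1, control replicate 2 or PRMT5 KD replicate 1 (FDR of 0.13, 0.132 and 0.0969), with total counts alone (-0.38, FDR = 0.101) and with the length and GC correction (-0.27, FDR = 0.204). CACYBP lost it without control replicate 1 or 2 (0.0786 and 0.0514) and with that correction, at 0.50. Without control replicate 2, ANXA1 (0.82, FDR = 0.106) and IQGAP1 (-0.79, FDR = 0.0509) were not called either.

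Set side by side, S100A10 and its partner ANXA2 lay on opposite sides of 0, but with the length and GC correction both were below it, at -0.16 and -0.27. ANXA2 had 656 and 648 CPM in control and 387 and 498 CPM in the KD-labelled libraries. The ratio of their RPKM values, on the length of all annotated exons, was 1.16 and 1.11 in control and 2.42 and 2.06 in the KD-labelled ones. With the longest transcript as length, the order in control was the reverse, with mean RPKM of 96.6 for S100A10 and 185 for ANXA2. In the KD-labelled libraries those means were 128 and 125. S100A11 and ANXA1 were both above 0, but with the length and GC correction S100A11 was at -0.33 and ANXA1 at 0.91. The ratio of S100A11 to ANXA1, 1.04 and 1.45 in control and 0.783 and 0.916 in the KD-labelled libraries, was lower in both of the latter libraries. With the longest transcript as length, S100A11 was below ANXA1 in control (mean RPKM 113 and 163) and in the KD-labelled libraries (155 and 324). S100A6 was lower and CACYBP higher. Of the receptors for extracellular S100 proteins, AGER was not called (-0.64, FDR = 0.157). TLR4, a receptor for calprotectin, was below the filter with 105, 164, 37 and 56 counts, and CD36 with 78, 176, 8 and 16.

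**Figure D4:**
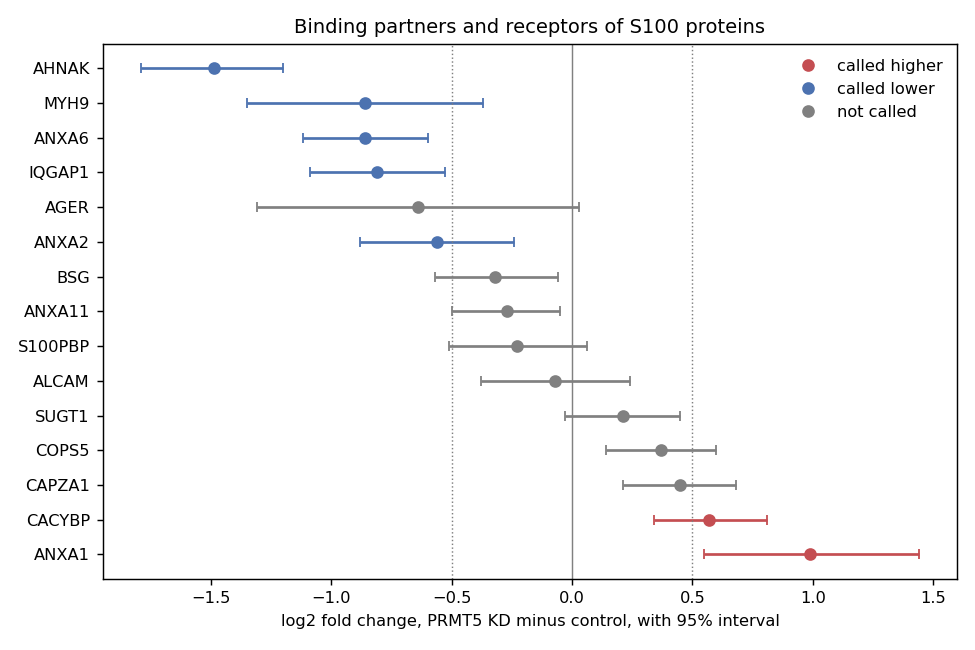
Log2 fold change (PRMT5 KD minus control, horizontal axis) with 95% interval for binding partners and receptors of S100 proteins that were tested. Red points were called higher, blue lower and grey neither, and dotted lines mark the threshold of 0.5. ANXA1 and CACYBP lie to the right, and AHNAK, MYH9, ANXA6, IQGAP1 and ANXA2 to the left.

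Calprotectin is 1 of several antimicrobial products of keratinocytes, and 13 others were followed. Of these 5 were at 0 in every library, 6, with those 5 included, had at most 3 counts in any library, and 3 could be tested. The others had more counts but were below the filter. PI3, or elafin, an elastase inhibitor, had 13 and 19 counts in control and 826 and 146 in the KD-labelled libraries, a log2FC of 4.83 (SE 1.07, FDR = 0.0194). SLPI, the related secretory leukocyte inhibitor, had 43 and 53 counts against 15 and 9 (log2FC -2.08, FDR = 0.00683). Like S100A8 and S100A9, SLPI passed the filter only through the control libraries and had to be lower. PI3 was not called without control replicate 1 (4.74, FDR = 0.0763), without control replicate 2 (4.95, FDR = 0.0873) or with no filter on low counts, and it was 3.13 without PRMT5 KD replicate 1. SLPI was not called without control replicate 2 (-2.10, FDR = 0.0518).

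Transcription factors known from S100 promoters or from keratinocyte differentiation were counted in the same way. Of 16 listed, 12 were tested, 2 were called higher and 3 lower, near the shares of 21.2% and 24.3% over all genes tested. KLF4, with 296 and 322 counts in control and 2166 and 3330 in the KD-labelled libraries, was higher by 3.05 on the log2 scale (FDR = 0.000468), and FOSL1, an AP-1 subunit, by 1.50 (FDR = 0.000617). TP63, the master regulator of basal epithelium, was at -1.35 (FDR = 0.0111) and CEBPD at -1.05 (FDR = 0.00181). TP63 passed the filter only through the control libraries and had to be lower. TP63 was not called without control replicate 1 or 2 (FDR of 0.0566 and 0.101). CEBPB was not called (0.34, FDR = 0.402).

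Genes whose profile over the 4 libraries was most like that of a member were found by Euclidean distance of centred log2 CPM among 10074 genes. For S100A8 the nearest were CHI3L1 (distance 0.57), KIAA1199 (0.70) and FIBIN (0.80). For S100A9 they were APOE (1.02), F2R (1.05) and again CHI3L1 (1.07). CHI3L1 had 97.3 and 162 CPM in control and 7.82 and 3.45 CPM in the KD-labelled libraries. Its higher control level in replicate 2, as for both calprotectin genes, follows from its choice by likeness over these libraries. S100A8 and S100A9 were too low to be among the genes compared, so neither could be listed for the other. For S100A2, which hardly varied, GLYR1, POLR3B and HERC3 lay at distances of 0.01 to 0.02. Each distance is taken over 4 libraries.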

How the data were processed

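The authors deposited estimated counts per gene, 1 table per library and not normalized, of which 86.0% to 86.8% are whole numbers. The submitters' processing notes name FastQC, Trim Galore, STAR, Salmon and DESeq2 on GRCh38, and the methods of the study name STAR and FeatureCounts on Gencode genes. The deposited names are RefSeq-style symbols and include ribosomal and transfer RNA genes, so the step that made the estimates is not settled by these sources. The library kit was directional.

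Each table holds 29744 entries, and 28 date-like names (gene symbols altered by spreadsheet software) were dropped (0.1497% to 0.1606% of counts). Names were matched to GENCODE 44 on GRCh38 by symbol (21877), RefSeq gene number (1147) or synonym (1523), which gave 18917 protein-coding genes. Each S100 gene had 1 entry.

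Counts were rounded. Protein-coding genes entered the test where all libraries of either group reached 0.5 RPKM. The test was the quasi-likelihood test of edgeR 4.0.16 (R 4.3.3, robust, TMM factors 0.946 to 1.09, Benjamini-Hochberg over 11896 genes). The biological coefficient of variation was 0.142. Standard errors were computed from the F statistic, and 95% intervals reach 1.96 standard errors to either side. That multiplier is for a normal distribution and ignores the few libraries, so these intervals are narrower than the F test implies. With 2 libraries against 2, no permutation of the labels can reach the threshold, so every FDR comes from the model across genes. The fit was also run on counts simulated from the means and dispersions of these data, without a trend with length or GC content. That run cannot tell how such a trend affects the calls.

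The members and all gene lists were chosen with earlier results of these data known, so no list was tested as a set. All members are named. Of the other lists, at most 6 called genes are named by size of change, except where stated. Other S100 genes are given by counts. An item that the list counts include is not reported here. The nearest profiles were sought among genes whose mean log2 CPM reached 3.

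Alternatives were DESeq2 1.42.0, other scalings, filters and gene sets, no robust dispersion, a replicate term, a length and GC correction (4 spline degrees of freedom) and the removal of each library in turn. No protein sequences are given.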

Additional observations from a re-analysis of the deposited data

How the results depend on the processing

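Of 126 values for the 9 S100 genes tested under 14 alternatives, 107 kept direction and side of the threshold, 6 lost a call, 7 gained a call and 6 changed sign. S100A3, S100A4 and S100A8 were called lower in every fit. The changes of sign were all under the length and GC correction, without and with a replicate block, for S100A2 (-0.10 and -0.10), S100A10 (-0.16 and -0.16) and S100A11 (-0.33 and -0.34), none of them called, and the cause was not tested. The median of the family was -0.47 with total counts alone, -1.10 with the length and GC correction and -1.11 with the replicate block added. Every family median in this section is over all 9 genes, S100A8 and S100A9 included, which had to be lower. The number of S100 genes called higher went from 0 to 2 with total counts alone and to 1 with filterByExpr, with no filter on low counts and with all gene names. With a log2 fold change of 1 required, 1031 genes were called higher and 1529 lower over all genes tested, and 0 higher and 1 lower among partners and receptors. Total counts alone gave 4 partners higher. Without a filter on low counts, 2 genes of the chromosome 1 region were called higher, and the antimicrobial list had 0 higher and 2 lower (SLPI and CAMP). With the longest transcript as length, S100A6 was 6.11 times the next gene.

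Across genes, equally numbered libraries deviated from their group means with a correlation of -0.101, and the labels name no pairs. The replicate block left 4 S100 genes called lower (S100A6 at -0.65 lost its call, FDR = 0.056 in edgeR) and gave 2402 genes higher and 2781 lower over all genes tested. It put S100A10 and S100A11 above the FDR threshold (0.0502 and 0.0683). The crossed pairing, added after the data had been seen, gave 5 S100 genes lower, 0 higher, and 2544 and 2938 genes over all genes tested.

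With each library left out, the lone library of a group is assumed to vary like the others. PRMT5 ranged from 0.57 to 0.78, the median of the family from -0.83 to -0.44, S100 genes called higher from 0 to 1 and lower from 3 (without control replicate 2) to 5. All genes tested gave 1361 (without control replicate 2) to 2762 higher and 1771 to 2950 lower, partners and receptors 0 to 2 higher and 3 to 7 lower, and antimicrobial genes 0 to 2 higher and 0 to 1 lower. At this depth S100A7 and all but 1 of the other S100 genes could not be compared.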
